A study of Mus musculus with 18 samples.

Results

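Slc26a4, Ano1 and Slc5a8, genes whose proteins carry anions across the apical membrane of epithelial cells, were followed in 1-month-old mouse thyroids on 18 single-colour Agilent arrays. They were taken by name, and each was read by every probe whose accession maps to it, which gave 1 probe per gene. All 3 passed the filter on low signal and stand among 17928 genes tested. The arrays fell into 4 groups of C57BL/6 mice, each array being labelled as a separate sample: 4 Glis3KO2 and 4 wild-type (WT) thyroids after 6 days on a low-iodine diet, and 5 Glis3KO2 and 5 WT thyroids on a normal diet. Glis3KO2 mice carry a targeted allele of Glis3, which encodes a Krüppel-like zinc finger transcription factor; the deleted part, the cells it is lost from and the sex of the mice are not given in the sources used here. The mice were fed these diets after weaning, and the labels name no other agent. The comparison addresses what loss of Glis3 does to thyroid transcripts with and without iodine restriction.

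Iodide enters the thyroid follicular cell at its basal side through the sodium/iodide symporter and must then cross the apical membrane to reach the colloid, where it is bound to thyroglobulin. Slc26a4 encodes pendrin, an exchanger of chloride, bicarbonate and iodide that sits in the apical membrane and is defective in Pendred syndrome, a human disease of goitre and deafness. Ano1 (also called TMEM16A) encodes anoctamin 1, a calcium-activated chloride channel of many secretory epithelia and of smooth muscle that also passes iodide. Slc5a8 encodes a sodium-coupled transporter that was first described as an apical iodide transporter and was later shown to carry monocarboxylates such as lactate and butyrate.

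The 3 genes lie on different chromosomes of the mouse build GRCm38.p6: Slc26a4 at chr12:31519814-31560055, Ano1 at chr7:144588549-144752026 and Slc5a8 at chr10:88885992-88929515. The 250 bases before each RefSeq start are shown as description, and a link between them and the transcript levels was not tested. They are credited to RefSeq, run 5′ to 3′ in the direction of the gene, and carry in capitals the letters that matched a searched motif. The Slc26a4 and Ano1 windows are on the minus strand and the Slc5a8 window is on the plus strand. The starts listed for Ano1 and Slc26a4 lie inside the spans given above, so the Ano1 window falls wholly within its gene's span and the Slc26a4 window partly, while the Slc5a8 window ends just before its gene.
Slc26a4, chr12:31559985-31560234: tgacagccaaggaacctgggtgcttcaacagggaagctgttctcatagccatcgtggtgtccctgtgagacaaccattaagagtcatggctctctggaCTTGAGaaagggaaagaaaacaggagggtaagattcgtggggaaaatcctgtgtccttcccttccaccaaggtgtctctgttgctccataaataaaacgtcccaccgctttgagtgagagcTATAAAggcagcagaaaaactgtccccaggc
Ano1, chr7:144738574-144738823: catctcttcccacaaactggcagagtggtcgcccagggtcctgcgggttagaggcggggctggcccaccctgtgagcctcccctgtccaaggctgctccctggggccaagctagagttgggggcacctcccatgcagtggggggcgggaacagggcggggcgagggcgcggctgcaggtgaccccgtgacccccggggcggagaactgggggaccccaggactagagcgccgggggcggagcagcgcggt
Slc5a8, chr10:88885742-88885991: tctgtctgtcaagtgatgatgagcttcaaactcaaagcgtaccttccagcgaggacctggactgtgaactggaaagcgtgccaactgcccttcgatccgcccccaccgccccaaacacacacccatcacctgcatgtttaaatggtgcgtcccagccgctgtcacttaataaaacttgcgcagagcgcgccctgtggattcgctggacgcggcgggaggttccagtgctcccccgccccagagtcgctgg

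The windows differ in base composition, with 49.6% G and C in that of Slc26a4, 72.0% in that of Ano1 and 58.8% in that of Slc5a8, against a median of 52.0% over 27025 listed promoters. The motifs searched, on both strands and with the sequences in view, were the GLIS core TGGGGGGT (in 1.32% of these promoters), the cyclic AMP response element TGACGTCA (1.62%), the NKX2-1 core CTCAAG (13.6%) and the TATA box TATAAA (13.0%). Only the Slc26a4 window held any of them: CTCAAG on the opposite strand, printed as CTTGAG at −152 to −147, and TATAAA at −31 to −26, counted back from the start. The matches do not overlap, and a match is a run of letters, not a binding site.

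Levels are log2 of the processed signal (the scanner's background-subtracted brightness) minus the array's 75th percentile, so a level of 0 is that percentile, and levels are compared for 1 gene across arrays and not between genes. The share of spots well above background ran from 60.1% to 90.6% over the arrays. Arrays of 1 group correlated at 0.944 to 0.988 over genes, and the least alike arrays of different diets at 0.730. Slides 1 to 3 carried the normal-diet arrays, and slides 4 and 5, read by another scanner model, the low-iodine ones, so that an effect of diet and one of the array set cannot be told apart. Each slide held both genotypes in equal numbers. Glis3 itself was read by 1 probe, whose position against the deleted part is not given, so that it does not check the labels: its level ran from −4.06 to −1.49 in Glis3KO2 and from −1.60 to −0.74 in WT thyroids on low iodine, and from −5.46 to −4.16 in Glis3KO2 and from −6.08 to −4.79 in WT thyroids on the normal diet. In whole glands, fewer cells of a type and less RNA per cell cannot be told apart.

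On the normal diet, pendrin transcript was several-fold lower in Glis3KO2 thyroids. Slc26a4 stood at −4.00, −4.55, −5.18, −5.21 and −5.43 on the 5 Glis3KO2 arrays, and at −1.05, −2.30, −3.38, −2.70 and −2.53 on the 5 WT arrays. Every Glis3KO2 array lay below every WT array, and in both groups the arrays spread widely. The means were −4.87 ± 0.59 in Glis3KO2 and −2.39 ± 0.85 in WT (SD, n = 5 each). The fitted difference was −2.48 ± 0.35 (SE; 95% interval −3.22 to −1.74), a 5.57-fold lower level with an adjusted p of 0.00371 by limma. It ranked 11th by p among all genes, and 0.418% of genes had a lower difference. Slc26a4 was the 1 gene of the 3 that passed the threshold, an adjusted p under 0.05, on this diet, where 1.39% of all genes passed. It was also the 1 whose arrays did not overlap between genotypes, against 3.52% of all genes.

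The Glis3KO2 values of Slc26a4 on the normal diet are close to the lower end of the scale. Their processed signals were 33.7, 24.2, 15.8, 11.5 and 16.1, with scanner errors of 2.51 to 4.35, whereas the dimmest probes called well above background on the 10 normal-diet arrays read 7.27 to 16.8. The WT signals were 310.3, 95.8, 63.8, 87.3 and 131.6. The probe was well above background on 17 of the 18 arrays, the exception being Glis3KO2 replicate 4, which also had the lowest share of spots above background. With any 1 array left out the difference stayed between −2.72 and −2.14 and past the threshold. It was −1.03 (adjusted p = 0.0198) with a normexp background correction with an offset of 50, which lifts dim signals. It did not pass when only the 10 normal-diet arrays entered the fit (−2.48, adjusted p = 0.0679).

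On the low-iodine diet the gap in Slc26a4 was narrower and did not pass the test. The level was −1.97, −2.56, −2.79 and −2.07 in Glis3KO2 thyroids, and −1.50, −1.25, −1.44 and −1.64 in WT thyroids. Again no Glis3KO2 array reached the lowest WT array. The means were −2.35 ± 0.39 in Glis3KO2 and −1.46 ± 0.16 in WT (SD, n = 4 each), and the difference was −0.89 ± 0.39 (95% interval −1.72 to −0.06, adjusted p = 0.146 by limma). With only the 8 low-iodine arrays in the fit, whose spread is smaller, the same difference had an adjusted p of 0.0410.

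**Figure D1:**
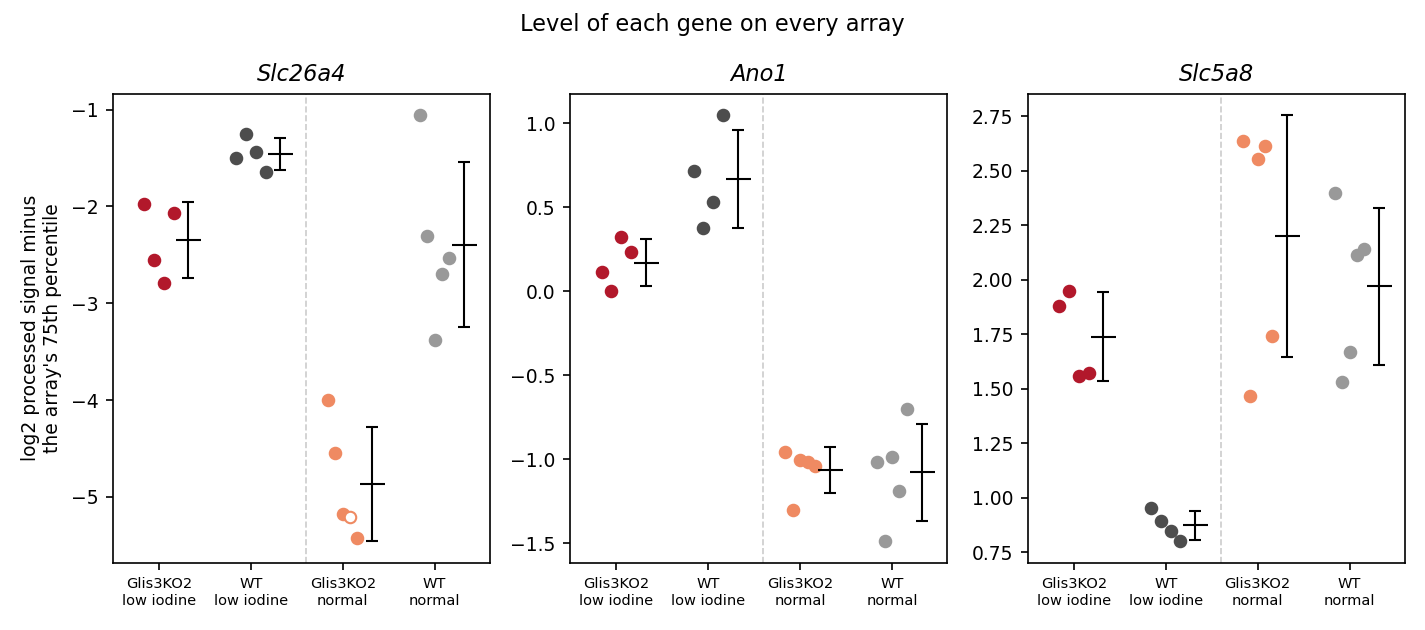
Level of Slc26a4, Ano1 and Slc5a8 (log2 processed signal minus the array's 75th percentile) on each of the 18 arrays, with the group mean and SD in black; the open point was not well above background, and the dashed line parts the low-iodine arrays from the normal-diet arrays. The lowest Slc26a4 values are the 5 Glis3KO2 arrays on the normal diet, at −5.43 to −4.00, and the lowest Slc5a8 values are the 4 WT arrays on low iodine, at 0.80 to 0.95.

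Anoctamin 1 transcript did not separate the genotypes on the normal diet. Ano1 stood at −0.96, −1.30, −1.005, −1.02 and −1.04 in Glis3KO2 thyroids, and at −1.02, −1.49, −0.99, −1.19 and −0.70 in WT thyroids. All 5 Glis3KO2 values lay inside the WT range. The means were −1.065 ± 0.14 in Glis3KO2 and −1.077 ± 0.29 in WT (SD, n = 5 each), and the difference was 0.01 ± 0.16, with a 95% interval of −0.32 to 0.34 and an adjusted p of 0.986. The sign of so small a value changed with the setting, for instance to −0.01 with median scaling and −0.14 with no scaling.

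On low iodine Ano1 was at 0.11, 0.00, 0.33 and 0.23 in Glis3KO2 thyroids, and at 0.72, 0.38, 0.53 and 1.05 in WT thyroids. The 2 sets did not overlap, with the highest Glis3KO2 array at 0.33 and the lowest WT array at 0.38. The means were 0.17 ± 0.14 in Glis3KO2 and 0.67 ± 0.29 in WT (SD, n = 4 each). The difference of −0.50 ± 0.17 (95% interval −0.87 to −0.13) missed the threshold, with an adjusted p of 0.0649 by limma. It passed with quantile normalization (−0.58, adjusted p = 0.0217), without WT low-iodine replicate 2 (−0.60, adjusted p = 0.0418) and without WT normal-diet replicate 2 (−0.50, adjusted p = 0.0483), and the lowest and highest adjusted p over 30 alternatives were 0.0217 and 0.529.

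Slc5a8 ran the other way on low iodine, higher in Glis3KO2 thyroids. Its level was 1.88, 1.95, 1.56 and 1.57 in Glis3KO2 thyroids, and 0.95, 0.89, 0.85 and 0.80 in WT thyroids. The lowest Glis3KO2 array stood well clear of the highest WT array, and the 4 WT values were close together. The means were 1.74 ± 0.20 in Glis3KO2 and 0.87 ± 0.07 in WT (SD, n = 4 each). The difference was 0.87 ± 0.26 (95% interval 0.32 to 1.41), a 1.82-fold higher level with an adjusted p of 0.0309 by limma. It was the 1 gene of the 3 that passed on this diet, where 15.0% of all genes passed, and all 3 genes had arrays that did not overlap, against 19.7% of all genes. The call was lost with no scaling (0.60, adjusted p = 0.242), with the normexp correction (0.75, adjusted p = 0.0549) and without any 1 of the WT low-iodine arrays 1 to 4 (adjusted p = 0.0505, 0.0546, 0.0651 and 0.0686) or of the Glis3KO2 low-iodine arrays 1 and 2 (0.0757 and 0.0736); the difference stayed between 0.80 and 0.93 with any 1 array left out.

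On the normal diet Slc5a8 stood at 2.63, 1.47, 2.55, 2.61 and 1.74 in Glis3KO2 thyroids, and at 2.40, 1.53, 1.67, 2.11 and 2.14 in WT thyroids. The Glis3KO2 values formed a high trio, above every WT array, and a low pair that lay among or below the WT values. The means were 2.20 ± 0.55 in Glis3KO2 and 1.97 ± 0.36 in WT (SD, n = 5 each). The difference of 0.23 ± 0.23 (95% interval −0.25 to 0.72, adjusted p = 0.749) did not pass the test.

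Each slide gives its own comparison of the genotypes. The Slc26a4 difference was −0.64 and −1.14 on slides 4 and 5 (low iodine), and −3.50, −2.35 and −2.09 on slides 1, 2 and 3 (normal diet). It was negative on all 5 slides and larger in size on each normal-diet slide than on either low-iodine slide. The Ano1 difference was −0.37 and −0.63 on slides 4 and 5, and −0.28, 0.23 and −0.05 on slides 1, 2 and 3. The Slc5a8 difference was 0.80 and 0.93 on slides 4 and 5, and −0.93, 0.98 and 0.06 on slides 1, 2 and 3. Ano1 and Slc5a8 thus kept 1 sign on the low-iodine slides and had mixed signs on the others. Slide 1 held 1 array of each genotype and the other slides 2 of each.

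Whether the genotype difference itself changed with diet was tested as an interaction, the low-iodine difference minus the normal-diet difference. It was 1.59 ± 0.53 for Slc26a4 (95% interval 0.47 to 2.70, unadjusted p = 0.00803, adjusted p = 0.165 by limma), and 99.1% of genes had a lower value. It was −0.51 ± 0.23 for Ano1 (95% interval −1.01 to −0.02, adjusted p = 0.332) and 0.63 ± 0.34 for Slc5a8 (95% interval −0.09 to 1.36, adjusted p = 0.432). None of the 3 genes passed, where 1.22% of all genes passed. The narrower Slc26a4 gap and the wider Ano1 and Slc5a8 gaps on low iodine were therefore not shown to differ from those on the normal diet.

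**Figure D2:**
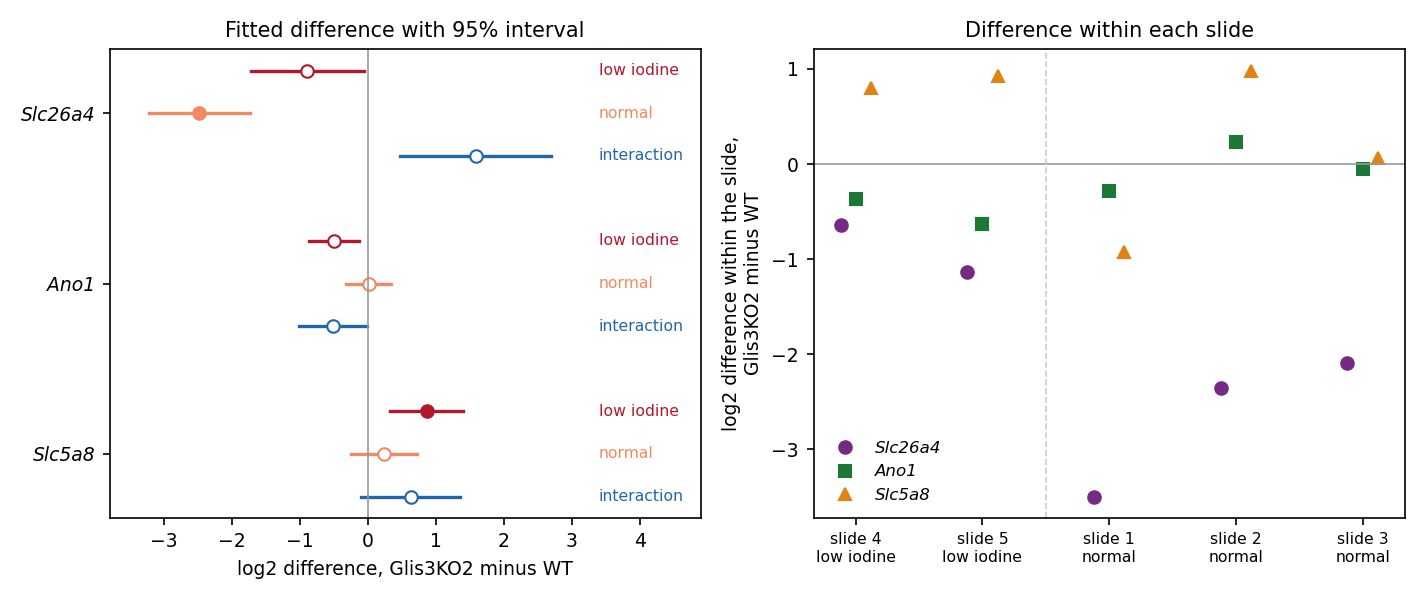
Left, the fitted log2 difference for each gene with its 95% interval (Glis3KO2 minus WT on low iodine and on the normal diet, and the interaction, low-iodine difference minus normal-diet difference); filled points had an adjusted p under 0.05. Right, the log2 difference within each slide, Glis3KO2 minus WT, where Slc26a4 is below 0 on all 5 slides, from −3.50 to −0.64.

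Between the diets, 2 of the 3 genes passed in Glis3KO2 thyroids, where 74.4% of all genes passed. All 3 passed in WT thyroids, where 75.9% of all genes passed. How often the diets separate fully over all genes was not counted, so full separation of a gene is not read as unusual. The centre of all genes depends on the scaling: the median difference, low iodine minus normal, was 0.01 in Glis3KO2 and 0.08 in WT thyroids as reported, and −0.80 and −0.91 with median scaling, so each gene is given also relative to that median. In Glis3KO2 thyroids Slc26a4 was 2.52 ± 0.37 higher on low iodine (adjusted p = 1.11e-05), 2.51 above the median of all genes, and the diets did not overlap. In WT thyroids it was 0.94 ± 0.37 higher (adjusted p = 0.0311), which is 0.86 above the median of all genes, and −0.05 (adjusted p = 0.908) with median scaling. There the diets overlapped, because WT normal-diet replicate 1, at −1.05, exceeded every low-iodine array. That WT call was also lost with quantile normalization (0.28, adjusted p = 0.439), with no scaling (0.60, adjusted p = 0.172), with only the 9 WT arrays in the fit (0.94, adjusted p = 0.0563) and without any 1 of WT normal-diet replicates 3, 4 and 5 or WT low-iodine replicates 1, 2 and 3, the difference being 0.69 to 1.27 with 1 array left out.

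Ano1 was higher on low iodine in both genotypes, by 1.23 ± 0.17 in Glis3KO2 (adjusted p = 3.67e-06) and by 1.75 ± 0.17 in WT thyroids (adjusted p = 5.10e-08). These differences lie 1.23 and 1.67 above the median of all genes. Every low-iodine array exceeded every normal-diet array of its genotype, though with median scaling the Glis3KO2 difference was 0.42 (adjusted p = 0.180). Without a count over all genes, the separation of the arrays by diet is not read as particular to Ano1. In Glis3KO2 thyroids the Slc5a8 difference was −0.46 ± 0.24 (adjusted p = 0.0947), which is −0.47 against the median of all genes, and the diets overlapped. It passed with median scaling (−1.27, adjusted p = 5.84e-04), with no scaling (−0.91, adjusted p = 0.00858) and without Glis3KO2 normal-diet replicate 2 (−0.65, adjusted p = 0.0147) or 5 (−0.58, adjusted p = 0.0463). In WT thyroids Slc5a8 was lower on low iodine (−1.10 ± 0.24, adjusted p = 5.99e-04), which is −1.17 against the median of all genes, without overlap.

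By group mean as scaled here, Slc26a4 was highest in WT on low iodine, then in Glis3KO2 on low iodine and WT on the normal diet, and lowest in Glis3KO2 on the normal diet. The middle pair, at −2.35 ± 0.39 and −2.39 ± 0.85, did not differ beyond their spread, and with median scaling neither did WT on low iodine and WT on the normal diet, at −0.05 apart. For Ano1 the order was WT on low iodine, Glis3KO2 on low iodine, and the normal-diet groups, whose means of −1.065 in Glis3KO2 and −1.077 in WT lay within their spread. For Slc5a8 it was Glis3KO2 and WT on the normal diet, Glis3KO2 on low iodine and WT on low iodine, with WT on low iodine the 1 group that overlapped no other.

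In the rest of the iodide pathway the genotype difference was measured over a list. Of 15 thyroid hormone synthesis genes listed, 13 were measured; Duox2 and Duoxa1 were not tested. On low iodine 0 were higher and 3 lower in Glis3KO2 thyroids, where 15.0% of all genes passed, with a list median of −0.53 against −0.02 for all genes. The count of lower genes was 1 with median scaling and 6 with quantile normalization, and 0 were higher under both. Among the 3 were Slc5a5, the basal sodium/iodide symporter, at −3.92 ± 0.43 (adjusted p = 2.68e-05), and Iyd, which recovers iodide from iodotyrosines, at −0.72 ± 0.23 (adjusted p = 0.0401, and 0.303 with median scaling). On the normal diet, where 1.39% of all genes passed, 1 was higher and 0 lower, with a list median of 0.07 against 0.05 for all genes. These counts were 0 and 0 with median scaling or quantile normalization, 0 and 1 with no scaling, and 2 and 0 with normexp. Slc5a5 showed an interaction of −3.38 ± 0.58 (adjusted p = 0.00986), the 1 member of the list to do so (2 with quantile normalization), where 1.22% of all genes passed. The genotype difference of the symporter was therefore the larger on low iodine, whereas that of Slc26a4 had its larger estimate on the normal diet.

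Tg, which encodes thyroglobulin, the protein on which hormone is made, differed by 0.30 ± 0.18 on low iodine (adjusted p = 0.329) and by 0.08 ± 0.17 on the normal diet (adjusted p = 0.910). Tshr, the thyrotropin receptor, differed by −0.04 ± 0.36 on low iodine (adjusted p = 0.957) and by 1.33 ± 0.32 on the normal diet (adjusted p = 0.0511). Neither gene passed on either diet.

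All 6 other listed genes for anion paths were measured: Slc26a7, an anion exchanger of the thyroid; Cftr, the cyclic AMP-gated chloride channel; Clcn3 and Clcn5, chloride/proton exchangers of endosomes; Slc4a2, a chloride/bicarbonate exchanger; and Slc12a2, which brings chloride in with sodium and potassium. None passed between the genotypes on either diet, where 15.0% of all genes passed on low iodine and 1.39% on the normal diet. The differences ran from −0.17 to 0.22 on low iodine and from −0.69 to 0.38 on the normal diet. With only 6 genes, this count is not read as a property of these paths. Between the diets several stood far from the median of all genes. Slc26a7 was higher on low iodine by 4.71 ± 0.16 in Glis3KO2 and by 4.69 ± 0.16 in WT thyroids (adjusted p = 2.94e-13 and 2.79e-13), and Cftr by 3.07 ± 0.25 and 2.51 ± 0.25 (adjusted p = 7.77e-09 and 8.89e-08). Clcn5 rose by 1.82 ± 0.24 in Glis3KO2 and 2.35 ± 0.24 in WT thyroids and Clcn3 by 1.62 ± 0.22 and 2.01 ± 0.22, while Slc12a2 was at −0.58 ± 0.16 and −0.63 ± 0.16. These directions were the same with median scaling, quantile normalization, no scaling and normexp.

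The relatives of the 3 genes are set against the same shares of all genes, 15.0% past the threshold on low iodine and 1.39% on the normal diet. Of the SLC26 family without Slc26a4, 9 of 10 were measured (not Slc26a3) and none passed on either diet, with medians of 0.13 on low iodine and 0.28 on the normal diet. Of the other anoctamins 7 of 9 were measured (not Ano3 and Ano7) and none passed, with medians of −0.01 on both diets. Of the SLC5 family without Slc5a8, 11 of 12 were measured (not Slc5a7). On low iodine 2 were lower, Slc5a5 and Slc5a9, a sodium-coupled sugar transporter, at −2.56 ± 0.35 (adjusted p = 1.56e-04), and none was higher; on the normal diet none passed. With lists this short, counts of 0 to 2 are not read as a property of the families. Some moved with the setting: Slc5a6, a vitamin transporter, was higher on low iodine with quantile normalization (0.90, adjusted p = 0.0425, against 0.0600 as reported), and Slc26a10 and Slc5a3, a myo-inositol transporter, were higher on the normal diet with normexp (adjusted p = 0.0398 and 0.0485).

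Between the diets, where 74.4% of all genes passed in Glis3KO2 and 75.9% in WT thyroids, genes of the families passed in both directions, as did all genes. Of the SLC26 genes 4 were higher and 3 lower on low iodine in Glis3KO2 thyroids, and 6 higher and 2 lower in WT thyroids. Slc26a6, an anion exchanger of many epithelia, was at −3.16 ± 0.32 in Glis3KO2 and −2.43 ± 0.32 in WT thyroids, and Slc26a11 at −0.89 ± 0.18 and −1.14 ± 0.18. Of the anoctamins 3 were higher and 1 lower in each genotype. Ano8 was at 2.39 ± 0.18 in Glis3KO2 and 2.18 ± 0.18 in WT thyroids, and Ano10 at −1.44 ± 0.19 and −1.45 ± 0.19. Of the SLC5 genes 8 were higher and 1 lower in each genotype. Slc5a4b was at 3.61 ± 0.22 in Glis3KO2 and 3.78 ± 0.22 in WT thyroids, Slc5a2, a sodium/glucose cotransporter, at 3.90 ± 0.36 and 4.06 ± 0.36, and Slc5a5 at 1.41 ± 0.41 and 4.78 ± 0.41. The balance depended on the scaling. With median scaling 3 SLC26 genes were higher and 4 lower in Glis3KO2 thyroids (4 and 3 in WT), 3 anoctamins higher and 3 lower (2 and 4 in WT) and 5 SLC5 genes higher and 3 lower (6 and 3 in WT), and each gene named here kept its direction, though Slc5a5 no longer passed in Glis3KO2 thyroids (0.60, adjusted p = 0.214).

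**Figure D3:**
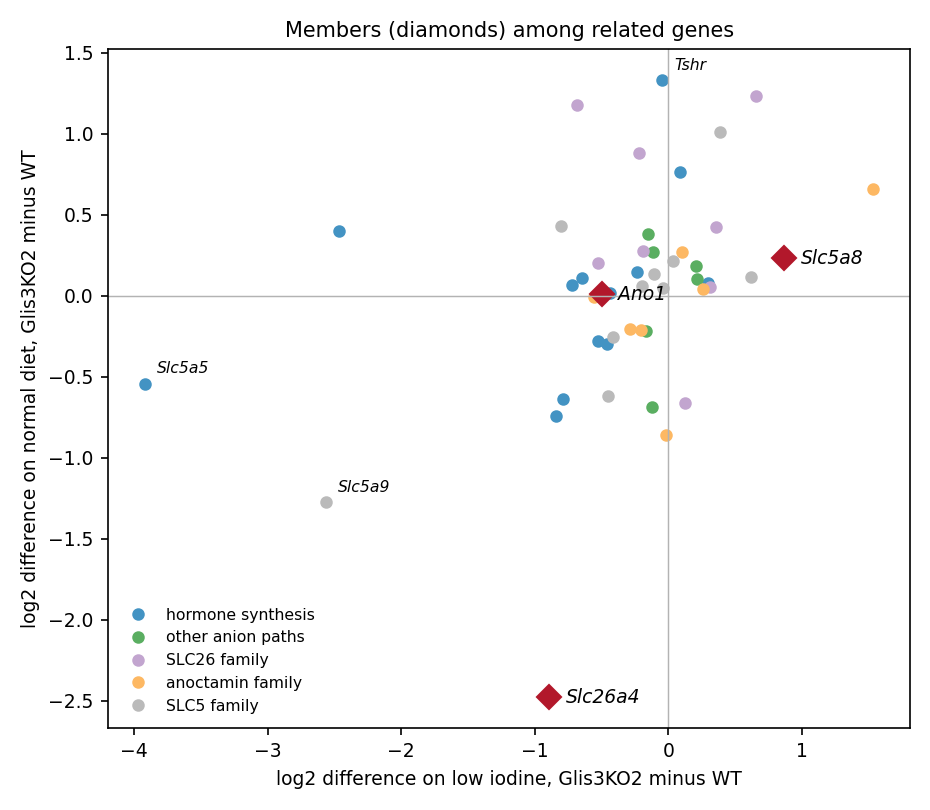
Log2 difference between genotypes, Glis3KO2 minus WT, on low iodine (x axis) and on the normal diet (y axis), for Slc26a4, Ano1 and Slc5a8 (red diamonds) and for each measured gene of 5 lists (points). Slc26a4 lies apart at −2.48 on the normal diet, and Slc5a5 lies apart at −3.92 on low iodine.

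Markers of cell types were compared because the 3 genes are not confined to follicular cells. Counts of markers past the threshold stand against the same shares of all genes, 15.0% on low iodine and 1.39% on the normal diet. Arrays did not overlap between genotypes for 19.7% of all genes on low iodine and 3.52% on the normal diet. How often the mean of a list separates was not counted, so separation of a marker mean is not read as unusual. All 7 follicular cell markers were detected on every array, and their mean level was 3.49 ± 0.19 in Glis3KO2 and 3.33 ± 0.16 in WT thyroids on low iodine (SD, n = 4 each), and 4.43 ± 0.22 in Glis3KO2 and 3.87 ± 0.24 in WT thyroids on the normal diet (SD, n = 5 each). On the normal diet, where Slc26a4 was lower, 2 of the 7 passed as higher in Glis3KO2 and 0 as lower, and the 7 differences ran from 0.08 to 1.33. On low iodine, where Slc5a8 was higher, 1 passed as higher and 0 as lower. There the differences had both signs, from −0.50 for Foxe1 to 0.77 for Pax8. Nkx2-1, a transcription factor of the follicular lineage, was higher on both diets, by 0.70 on low iodine (adjusted p = 0.00555) and 0.61 on the normal diet (adjusted p = 0.0359), and passed on neither with median scaling (adjusted p = 0.0526 and 0.343). With the mean of these markers as a covariate the normal-diet Slc26a4 difference was −2.65 (adjusted p = 0.0642), and the low-iodine Ano1 difference was −0.56 (adjusted p = 0.0420).

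Airway epithelium, which also makes pendrin and anoctamin 1, was represented by 6 markers, all measured. Their mean level ran from −3.39 to −1.11 in Glis3KO2 and from −3.82 to 0.55 in WT thyroids on low iodine, and from −3.14 to −0.24 in Glis3KO2 and from −0.14 to 0.93 in WT thyroids on the normal diet. On the normal diet the genotypes did not overlap in this mean and the median difference of the 6 was −1.99, the same direction as Slc26a4, though 0 of the 6 passed (with median scaling Scgb3a2, a secretoglobin of airway cells, passed at −2.58, adjusted p = 0.0372, and with normexp at −2.36, adjusted p = 0.0268). On low iodine the median was −1.25, and Foxj1, a factor of ciliated cells, was the 1 that passed (−2.07, adjusted p = 0.00263). Over all single genes, 3.52% did not overlap between genotypes on the normal diet. Each airway marker was well above background on 3 or more arrays of every group. The part of airway tissue in the Slc26a4 difference was not tested.

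Smooth muscle, which makes anoctamin 1, was represented by 5 markers, all measured on every array. Their mean level ran from 0.74 to 1.46 in Glis3KO2 and from 1.50 to 2.02 in WT thyroids on low iodine. That was without overlap and in the direction of Ano1, on a diet where 19.7% of all single genes did not overlap. On the normal diet the mean ran from 0.86 to 2.03 in Glis3KO2 and from 0.34 to 2.02 in WT thyroids. The median difference on low iodine was −0.59, with 0 of 5 passing (Tagln, an actin-binding protein, passed with quantile normalization at −1.07, adjusted p = 0.0110, and with no scaling at −1.12, adjusted p = 0.0134). Endothelial markers were lower too on low iodine, where 15.0% of all genes passed, with 2 of 3 passing as lower and a median of −1.23. Cdh5, the adhesion protein of endothelial junctions, was at −1.47 there (adjusted p = 4.97e-04). The part of these tissues in the Ano1 difference was not tested.

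Of the 5 thymus markers measured, 2 passed on the normal diet, where 1.39% of all genes passed, both in the direction of Slc26a4. Psmb11, a proteasome subunit of thymic cortical epithelium, was at −5.19 (adjusted p = 0.0430) and Ccl25, a chemokine of thymus, at −3.46 (adjusted p = 0.0317). The others did not pass, with Rag1 at −1.71, Foxn1 at −1.23 and Cd3e in the other direction at 0.29. The list mean ran from −5.09 to −1.70 in Glis3KO2 and from −3.77 to 0.47 in WT thyroids on that diet, with overlap, and from −2.65 to −2.05 in Glis3KO2 and from −2.68 to −2.02 in WT thyroids on low iodine, where 0 of 5 passed.

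The mean of the 4 fibroblast markers ran from 1.69 to 2.58 in Glis3KO2 and from 2.74 to 3.39 in WT thyroids on the normal diet. That was without overlap and in the direction of Slc26a4, on a diet where 3.52% of all single genes did not overlap. Col1a1, a chain of type I collagen, was the 1 that passed there (−1.82, adjusted p = 0.0317, and 0.0621 with quantile normalization). The others did not pass, with Lum at −1.43, Pdgfra at −0.13 and Dcn in the other direction at 0.18. The 4 markers thus did not move together, and the lower mean rests on Col1a1 and Lum. On low iodine the mean ran from −0.11 to 1.02 in Glis3KO2 and from 1.02 to 1.74 in WT thyroids, with Col1a1 lower (−3.92, adjusted p = 3.35e-05) and Dcn, a matrix proteoglycan, higher (0.99, adjusted p = 0.00762, and 0.0649 with no scaling).

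Of the 4 C cell markers, Calca, which encodes calcitonin, was higher on low iodine, where Slc5a8 was higher (1.20, adjusted p = 5.75e-04), and 0 passed on the normal diet. The list mean ran from 1.00 to 1.79 in Glis3KO2 and from 0.87 to 1.31 in WT thyroids on low iodine, and from 1.42 to 3.16 in Glis3KO2 and from 2.47 to 3.22 in WT thyroids on the normal diet. The part of thymus, fibroblasts and C cells in the differences of the 3 genes was not tested. Parathyroid, salivary gland, skeletal muscle and brown fat markers had 0 members past the threshold in either genotype comparison (Cidea of brown fat was higher on low iodine with median scaling, adjusted p = 0.0455, and quantile normalization, adjusted p = 0.0179), and their means overlapped between genotypes on both diets. Marker means also differed between the diets as scaled here. Brown fat stood at 1.73 in Glis3KO2 and 1.42 in WT thyroids on low iodine, against 5.16 and 4.97 on the normal diet. Fibroblast markers were lower on low iodine as well (0.47 and 1.41 against 2.28 and 3.08), while endothelial markers were higher (1.00 and 2.01 against 0.57 and 0.55). The part of tissue make-up in the diet differences of the 3 genes was not tested.

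**Figure D4:**
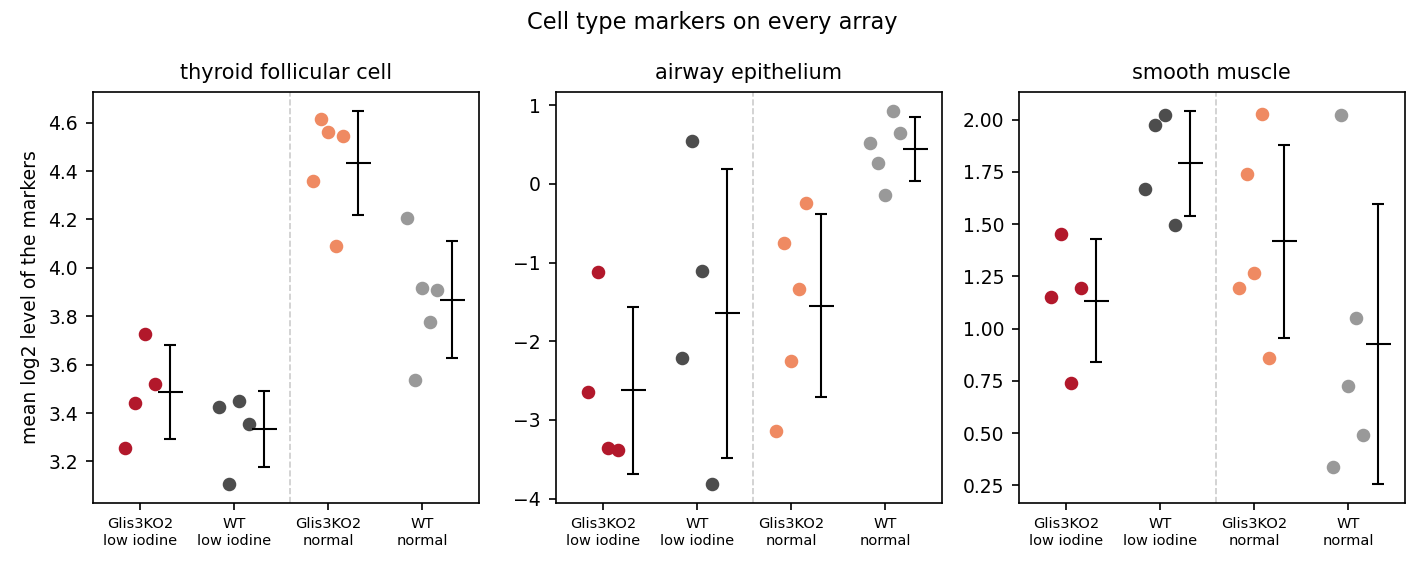
Mean level (log2 signal minus the array's 75th percentile) of the follicular cell, airway epithelium and smooth muscle markers on each of the 18 arrays, with the group mean and SD in black and the dashed line between the diets. The airway means run from −3.14 to −0.24 in Glis3KO2 and from −0.14 to 0.93 in WT thyroids on the normal diet.

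The genes whose levels ran most like those of each transporter were found by Pearson correlation over the 18 arrays after each diet's mean was subtracted, so that arrays share genotype and slide and the values describe without a test. For Slc26a4 they were Sh3tc2 (0.85), Stc2, which encodes the secreted glycoprotein stanniocalcin 2 (0.84), Cbx1, a heterochromatin protein (0.83), Ccnd2, cyclin D2 (0.83), and Kif2c, a mitotic kinesin (0.82). All 5 had negative differences on both diets. The genotype difference stays in this correlation, so the choice of genes itself favours a sign shared with the transporter. For Ano1 they were Clic4, a chloride intracellular channel protein (0.83), Hmgn2, a nucleosome-binding protein (0.82), Mlec, a lectin of the endoplasmic reticulum (0.80), Rpa2, a subunit of replication protein A (0.80), and Tmed10, a cargo receptor of the early secretory route (0.78). All 5 had negative differences on low iodine. On the normal diet Clic4 was at 0.05 and the others were negative. For Slc5a8 they were Cldn10, a claudin of tight junctions, Arhgap5, Trim36, Rtn1 and Rapgef6, all at 0.85. All 5 had positive differences on both diets, which the choice favours in the same way. The 3 transporters themselves were little alike by this measure, at 0.11 for Slc26a4 with Ano1, −0.23 for Slc26a4 with Slc5a8 and −0.24 for Ano1 with Slc5a8.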

How the data were processed

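Per the submitters' processing notes, scans were read with Agilent Feature Extraction 12; per the file headers, releases 12.0.0.7 (normal diet) and 12.0.3.1 (low iodine) were used. The deposited value is the processed signal, an intensity on a linear scale with background subtracted. The deposited summary table holds the same intensity (ratio 1). Per the labels' protocols, RNA was amplified before Cy3 labelling. From these values, control spots and spots with an outlier flag were removed, log2 was taken and each array's 75th percentile subtracted. Of 41174 probes, 28223 (68.5%) matched a gene of the GRCm38.p6 table through their accession, and 82 were left out because every spot was flagged on some array. A probe was kept if it was well above background on 4 or more of the 18 arrays, and the brightest stood for each gene. No spot was saturated.

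One limma 3.58.1 model (R 4.3.3) fitted 4 group means over 18 arrays, with Benjamini-Hochberg adjustment over 17928 genes and 0.05 as the threshold; it was tested on simulated data. The number of arrays limits the precision, and the labels do not say whether each came from a separate animal, so p-values measure the spread between these samples. The members, lists, markers and motifs were chosen with earlier results of these data known. Named genes are the 3 members, list genes that passed, Slc5a5, Tg and Tshr, and the 5 genes most like each member; marker genes were named after their values were seen. Some single genes of the lists are not reported. The alternatives changed the scaling, background correction (normexp used the median signals), detection filter, probe rule, blocks, arrays in the fit and 1 array at a time; a follicular marker covariate and the scaling checks of list genes were added after seeing the data.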

Additional observations from a re-analysis of the deposited data

Results flagged for a closer look

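Of the 24 extremes examined, the highest and lowest array of each group for each of the 3 genes, 1 stood apart by Dixon's test: Ano1 in Glis3KO2 replicate 2 on the normal diet, at −1.30, with a gap to the next array of 0.754 of the group's range, above the critical value for 5 arrays. About 1 group in 20 is flagged by chance. With that array left out, the normal-diet Ano1 difference was 0.07 (adjusted p = 0.931).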

How the results depend on the processing

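Over 28 to 30 alternatives for each of the 15 differences, the normal-diet Slc26a4 difference kept its direction (−2.72 to −1.03), no longer passed with only the compared groups fitted (−2.48, adjusted p = 0.0679) or the follicular marker covariate (−2.65, adjusted p = 0.0642), though it was as large or larger, and stayed between −2.72 and −2.14 with 1 array left out. The low-iodine Slc26a4 difference (−1.02 to −0.74 with 1 array left out) passed with only the compared groups (−0.89). With the replicate block it was −0.89 (adjusted p = 0.0348), but same-numbered samples correlated at −0.04 to 0.32 on the normal diet and 0.03 to 0.13 on low iodine in their deviations, so the numbers were not taken to pair samples; the block left 160 genes past the threshold on the normal diet, against 249 without it. In WT thyroids the diet difference of Slc26a4 turned to −0.0495 with median scaling, was lost with quantile normalization (0.28), no scaling (0.60) and the compared groups only (0.94), and was 0.69 to 1.27 with 1 array left out, lost without WT normal-diet replicates 3, 4 or 5 or WT low-iodine replicates 1, 2 or 3.

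The normal-diet Ano1 difference, near 0, turned to −0.0120 with median scaling, −0.14 with no scaling and −0.22 with the follicular covariate, and was −0.0906 to 0.106 with 1 array left out, negative without WT replicate 2 (−0.0906), WT replicate 4 (−0.0151), Glis3KO2 replicate 1 (−0.0141) or Glis3KO2 replicate 3 (−0.00242). The low-iodine Ano1 difference passed with quantile normalization (−0.58) and the follicular covariate (−0.56). With 1 array left out it was −0.60 to −0.37 and passed in 2 of 18 fits. The Glis3KO2 diet difference of Ano1 was lost with median scaling (0.42). The low-iodine Slc5a8 difference was lost with no scaling (0.60) and normexp (0.75). With 1 array left out it was 0.80 to 0.93 and was lost in 6 of 18 fits. The Glis3KO2 diet difference of Slc5a8 passed with median scaling (−1.27) and no scaling (−0.91). With 1 array left out it was −0.65 to −0.35 and passed in 2 of 18 fits.

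Genes past the threshold on the normal diet numbered 249 (92 higher, 157 lower), 3 with only the compared groups, 10 with the follicular covariate, and 157, 146, 160, 123, 675 and 143 without WT replicate 2 or 5 or Glis3KO2 replicate 1, 3, 4 or 5; with no scaling the split was 28 higher and 269 lower, and with median scaling 54 and 147. On low iodine they numbered 2687 (1400 higher, 1287 lower), 1642 with median scaling, 1673 with only the compared groups, and 255 higher and 1637 lower with no scaling. The interaction had 219 (64 higher, 155 lower), 90 with median scaling (36 and 54), 706 with quantile normalization (286 and 420), 131 with no scaling (14 and 117), 341 with all probes fitted singly, and 131 to 141 without any 1 of WT normal-diet replicates 3 and 4, Glis3KO2 normal-diet replicate 2, WT low-iodine replicates 1, 3 and 4 and Glis3KO2 low-iodine replicate 4. Between the diets the split was 6716 higher and 6616 lower in Glis3KO2 thyroids (4277 and 9304 with median scaling), and 7061 and 6541 in WT thyroids (4268 and 9648). The cause of these changes was not tested. With 1 probe for each gene, the probe rules left the differences of the 3 genes as they were.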
